A study of Arabidopsis thaliana with 12 samples.

Results

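Wild-type Arabidopsis thaliana libraries made with a stranded mRNA kit were compared with wild-type libraries made with a stranded total RNA kit. They are 6 of the 12 libraries of the series, chosen by their labels. The 3 mRNA libraries were titled 1171WTCol3 and the 3 total RNA libraries WTCol0, and the labels do not say how these wild types differ. All came from the aerial parts of seedlings 6 days old, grown with 1% sucrose under 16 h of light and 8 h of dark after 3 days of cold. The other 6 libraries carry mutant alleles of RAP74, which encodes TFIIFα, a factor that RNA polymerase II needs at promoters. They are tfIIfα1 with the mRNA kit and tfIIfα2 with the total RNA kit. Kit and wild-type line move together, as would any difference in sequencing run, so a difference between the groups cannot be assigned to any of them: the 3 cannot be told apart. The labels do not say that the replicates came from separate cultures, so p-values measure the spread between these samples, which may be technical.

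Kits for mRNA capture RNA through its poly(A) tail, the run of adenines that the nucleus adds to messenger RNA of RNA polymerase II. Total RNA kits instead remove ribosomal RNA and keep the rest, with or without a tail. Chloroplasts and plant mitochondria keep their own genomes, and there a poly(A) tail marks RNA for decay, so most of their RNA has no stable tail. The small nuclear RNAs of the spliceosome and the small nucleolar RNAs that guide the modification of ribosomal RNA also end without a poly(A) tail.

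The sequences of 4 such RNAs, 3 of the spliceosome and 1 guide snoRNA, are shown as examples of nuclear RNAs that were lower in the mRNA libraries, and a stretch of AT4G23420 is shown because a protein-coding model carries a near copy of one. They were chosen after the values were seen and read from the TAIR10.1 RefSeq genome by locus. Capitals mark ATTTNTG, a search pattern for the site that binds Sm proteins, and in U49.1 they mark the C box (GATGA) and D box (CTGA) of a guide snoRNA.
AT1G08115, a U1 snRNA by its reference synonym, on chromosome 1: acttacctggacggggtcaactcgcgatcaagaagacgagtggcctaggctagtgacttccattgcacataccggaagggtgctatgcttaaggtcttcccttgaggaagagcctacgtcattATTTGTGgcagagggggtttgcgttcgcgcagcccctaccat
AT4G23420, bases 8 to 172 of the gene, on chromosome 4: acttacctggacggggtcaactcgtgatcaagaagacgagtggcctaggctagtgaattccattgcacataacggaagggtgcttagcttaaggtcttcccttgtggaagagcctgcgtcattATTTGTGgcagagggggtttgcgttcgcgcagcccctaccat
U4.2 snRNA, on chromosome 3: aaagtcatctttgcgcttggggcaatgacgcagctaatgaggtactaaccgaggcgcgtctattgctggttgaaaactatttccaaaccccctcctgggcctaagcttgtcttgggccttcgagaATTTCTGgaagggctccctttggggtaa
U12 snRNA, on chromosome 1: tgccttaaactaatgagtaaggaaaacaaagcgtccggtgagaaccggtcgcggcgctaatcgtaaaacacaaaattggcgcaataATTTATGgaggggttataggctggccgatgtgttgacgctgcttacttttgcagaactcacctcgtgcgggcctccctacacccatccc
U49.1 snoRNA, on chromosome 4: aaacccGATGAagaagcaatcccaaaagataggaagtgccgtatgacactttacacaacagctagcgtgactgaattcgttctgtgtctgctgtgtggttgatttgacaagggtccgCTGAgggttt
Among loci of 100 to 200 bases, ATTTNTG occurred on the gene strand in 3 of 6 snRNA, 0 of 17 snoRNA and 15 of 115 microRNA loci, and on either strand in 5 (83.3%), 0 and 22 (19.1%) of them. The snRNAs printed above are those 3 of 6, so the pattern marked in them does not stand for the other snRNA loci. GATGA in the first 20 bases together with CTGA in the last 20 bases of the gene strand occurred in 55 of 71 snoRNA loci (77.5%), and in 0 of 13 snRNA, 0 of 177 microRNA and 0 of 631 tRNA loci. A match is a description of the letters only.

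Sequencing depth was 57033910 to 66711096 counts with the mRNA kit, of which 55389860 to 64800743 fell on nuclear protein-coding genes. With the total RNA kit it was 33292996 to 35078141, of which 11631298 to 14026531 fell on these genes. These totals, which set the scaling, include nuclear protein-coding loci that resemble the organelle genomes. The class shares of nuclear protein-coding genes below leave those loci out. Levels are given as CPM, counts scaled to a common total of nuclear protein-coding counts after TMM scaling, which brings most of these genes to a common level. CPM is not divided by gene length, so it was compared between libraries and never between genes. Fold changes are mRNA over total RNA and come from edgeR's quasi-likelihood test with Benjamini-Hochberg adjustment over all 20222 genes tested. A gene was called at an adjusted p under 0.05. Even numbers made up 57.6% to 61.5% of the genes' counts in the mRNA libraries and 47.7% to 48.1% in the total RNA libraries, and the part of this in the results was not tested. All 8 leaf marker genes were over 1 CPM in every library, and their summed level was 99490 to 109800 CPM in the mRNA libraries and 37360 to 65220 in the total RNA libraries. No root marker (0 of 8) and no seed marker (0 of 5) was over 1 CPM in all libraries of a group. The root sum was 1.89 to 3.199 against 0.293 to 1.69 CPM and the seed sum 0.338 to 1.45 against 1.15 to 2.57 CPM. In bulk RNA, fewer cells of a type and less RNA per cell cannot be told apart.

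Of the tested genes, 46.7% were called, 4353 higher (21.5%) and 5094 lower (25.2%) in the mRNA libraries. At least 2-fold, 1306 were higher (6.46%) and 1578 lower (7.8%). The median over all tested genes was -0.03 on the log2 scale. With nuclear protein-coding totals and no TMM factor, 2437 were higher and 7965 lower, and the median of all genes shifted by -0.26. These shares are the background for every count below. Groups of libraries did not overlap for 57.8% of the tested genes.

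The transcript classes took very different shares of the counts. Nuclear protein-coding genes took 97.13%, 97.11% and 97.12% of all counts in the 3 mRNA libraries and 38.93%, 38.59% and 33.8% in the 3 total RNA libraries. Plastid genes took 0.01812%, 0.01902% and 0.01575% against 57.27%, 57.79% and 62.48%. Mitochondrial genes took 0.0003806% ± 0.000108 against 1.228% ± 0.1102 (SD, n = 3 each). In the total RNA libraries the plastid genome thus took more counts than all nuclear protein-coding genes. Small nuclear RNAs took 0.00114% ± 0.000336 against 0.09922% ± 0.0139, and small nucleolar RNAs 0.003528% ± 9.31e-05 against 0.08949% ± 0.0150. Transposable element genes took 0.0763% ± 0.000914 against 0.05589% ± 0.00278 and pseudogenes 0.06769% ± 0.000503 against 0.03478% ± 0.00189 of all counts, a total that plastid genes fill unequally. Set against nuclear protein-coding counts alone, both were lower in the mRNA libraries, with 0.0786% ± 0.000947 against 0.151% ± 0.00726 for transposable element genes and 0.0697% ± 0.000515 against 0.0939% ± 0.00449 for pseudogenes (n = 3 each). The groups did not overlap for any of these classes, and the exact two-sided permutation test gave p = 0.1 for each, the smallest that 3 against 3 libraries allow. Without the 10 highest genes of each library, the plastid share of the total RNA libraries was 21.2% ± 2.82 (n = 3), from 19.2% to 24.4%.

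**Figure D1:**
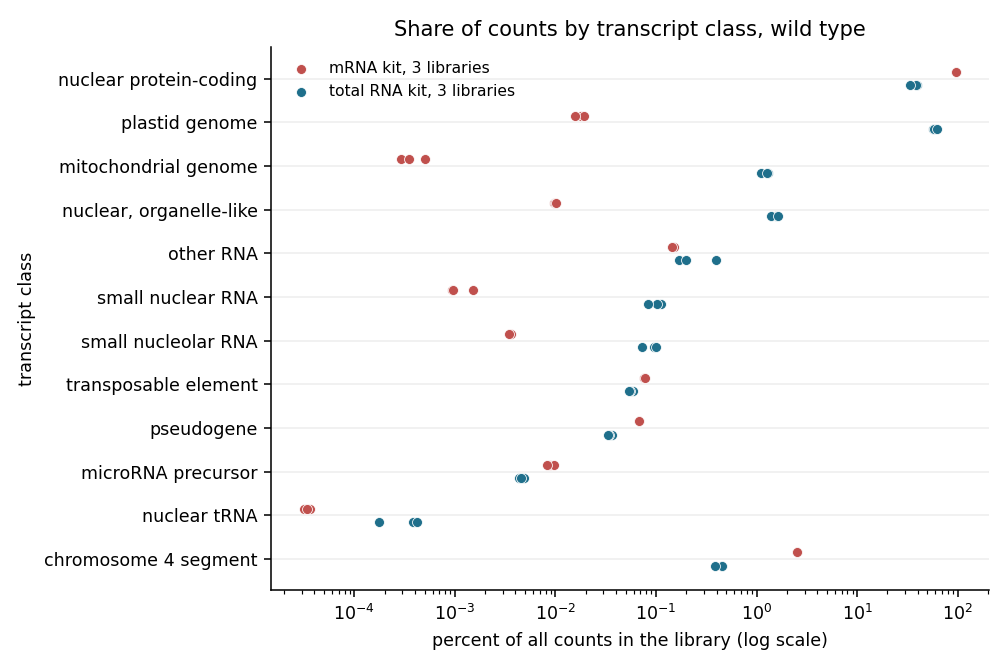
Share of all counts per library (percent, log axis) for each transcript class, with 1 point per wild-type library, red for the mRNA kit and blue for the total RNA kit. The plastid genome took 57.27% to 62.48% in the total RNA libraries and at most 0.01902% in the mRNA libraries.

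Every one of the 88 plastid protein-coding genes was tested and was lower in the mRNA libraries, with a median of -12.47 on the log2 scale. That median is -12.35 with the 3 genes that had 0 counts in all mRNA libraries set at a floor of 3 counts per library. PSBA, the D1 protein of photosystem II, had 546, 503 and 472 counts in the mRNA libraries and 6942012, 6840034 and 7233162 in the total RNA libraries. The groups lay far apart, with a log2 fold change of -15.74 ± 0.62 (SE; edgeR adjusted p = 1.9e-07). RBCL, the large subunit of Rubisco, had 856, 557 and 456 against 5139792, 5098439 and 5239817 counts. Its groups were also apart, at -15.01 ± 0.62 (edgeR adjusted p = 2.7e-07).

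The plastid gene groups differed in the size of the difference, though all their members were lower. The median was -13.38 for 26 genes of the photosystems and the cytochrome b6f complex, -13.04 for 12 of the NDH complex and -12.63 for 6 of the ATP synthase. It was -11.33 for 26 ribosomal protein genes and -10.25 for 4 genes of the plastid-encoded RNA polymerase. RPOB, the beta subunit of that polymerase, had 1853, 1730 and 1598 counts in the mRNA libraries and 45099, 30719 and 32784 in the total RNA libraries (-6.35 ± 0.17, edgeR adjusted p = 1.2e-08). Its groups were apart, by less than those of PSBA and RBCL. ATPB, the beta subunit of the ATP synthase, had 1775, 1464 and 1706 against 278624, 274120 and 302019 counts (-9.42 ± 0.26, edgeR adjusted p = 1.4e-08). RPL32, a protein of the large ribosomal subunit, had 677, 618 and 531 against 13930, 15342 and 18160 counts (-6.69 ± 0.23, edgeR adjusted p = 6.6e-08). The groups were apart for all of these, and RPOB had the smallest difference of the 88 genes. NDHC, a membrane subunit of the NDH complex, differed by more than RPOB, ATPB and RPL32 and by less than PSBA and RBCL. It was at -12.47, with 13, 18 and 16 against 23295, 21000 and 24019 counts.

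Plastid tRNA loci were lower in 34 of 34 tested of 37, with a median of -11.45, or -9.42 with loci at 0 set at the floor. TRNL.1, a leucine tRNA, had 2, 12 and 2 counts against 45749, 36260 and 47478. Plastid ribosomal RNA loci had few counts in both kits, with 0, 0 and 2 against 32, 27 and 23 for RRN16S.1, and 3 of 3 tested of 8 were lower. The total RNA kit removes ribosomal RNA, and how the counting treated reads that match several loci is not given in the sources used here.

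All 103 tested of 122 mitochondrial protein-coding genes were lower in the mRNA libraries, with a median of -10.18, or -8.83 with genes at 0 set at the floor, since 50 of them had no count in any mRNA library. COX1, the catalytic subunit of cytochrome c oxidase, had 2, 8 and 4 counts against 48964, 35532 and 40294. The groups were apart, at -15.03 ± 0.32 (edgeR adjusted p = 5.4e-09). The 4 genes of cytochrome oxidase and cytochrome b had a median of -14.32, the 4 of the ATP synthase -14.09 and the 14 of complex I -12.79. ATP1, the alpha subunit of the ATP synthase, had 6, 2 and 10 against 32115, 29400 and 28651 counts (-14.22). NAD4 of complex I had 4, 13 and 12 against 19587, 14979 and 17721 counts (-12.76). Loci named only as open reading frames had a median of -9.11 over 67 tested of 86, or -5.74 with the floor. Of the 67, 44 had no count in any mRNA library. For those the size of the difference is only a lower bound, so the median cannot be ranked against the groups above. ORF107H, an open reading frame with counts in each mRNA library, had 12, 34 and 2 against 110, 158 and 83 counts (-4.81 ± 0.60, edgeR adjusted p = 2.9e-04). ORF110A, whose sequence resembles rbcL, had 0 counts in each mRNA library and 103194, 89734 and 115271 in the total RNA libraries, at least 136000-fold higher against the floor. Its counts cannot be told apart from those of near-identical rbcL copies.

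A further 164 nuclear loci match the plastid or mitochondrial genome at 90% identity or more over at least 50% of their length or 100 bases, and 132 of them lie in the AT2G07 block of chromosome 2, where a copy of the mitochondrial genome is inserted. Of 144 tested, 139 were lower in the mRNA libraries and 1 was higher, with a median of -9.80, or -7.62 with the floor. They took 0.009946% ± 0.000242 of counts in the mRNA libraries and 1.516% ± 0.127 in the total RNA libraries (n = 3 each). AT2G07698, similar to ATP1, had 0.406, 0.233 and 0.354 CPM against 2748, 2872 and 3021 CPM (-13.06 ± 0.23, edgeR adjusted p = 2.7e-09). AT2G07732, similar to rbcL, was at 0 in all mRNA libraries and at 12350, 12680 and 17700 CPM in the total RNA libraries. Counts on these loci and on their organelle copies cannot be told apart, since the files do not say how shared reads were placed. The exception, JGL (JAGGED-like, a zinc finger regulator), matches the plastid genome over 10.2% of its length. It had 28, 26 and 42 counts against 4, 1 and 3 and was called at 1.597 ± 0.50 (edgeR adjusted p = 0.028). That call was lost with no TMM factor (1.34), without total RNA replicate 2 (1.26) and without replicate 3 (1.76).

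**Figure D2:**
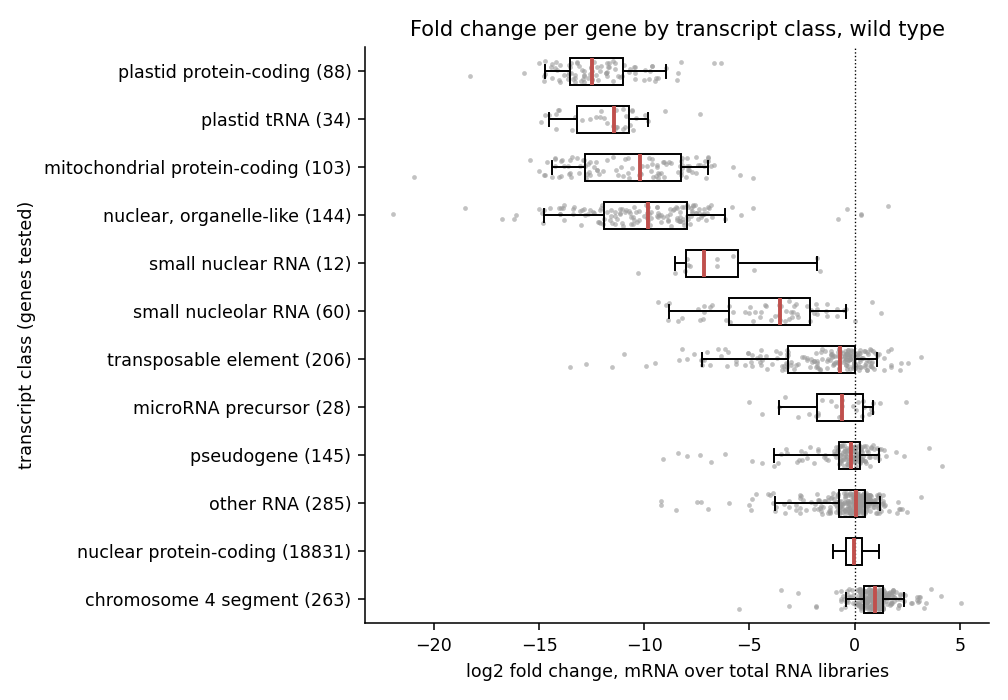
Log2 fold change of each tested gene, mRNA over total RNA libraries, by transcript class, with the number tested in brackets; boxes span the middle of the genes, whiskers the 5th to 95th percentiles and the red line the median. Plastid (median -12.47) and mitochondrial (-10.18) protein-coding genes lie far left, small nuclear RNAs at -7.18, and nuclear protein-coding genes near 0.

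Small nuclear RNAs were lower in the mRNA libraries in all 12 tested of 13, with a median of -7.18. AT1G08115, the U1 RNA printed above, had 2.25, 1.26 and 2.69 CPM against 448.7, 705.1 and 522.1 CPM. The groups were apart, at -8.07 ± 0.32 (edgeR adjusted p = 2.2e-07). U4.2, which pairs with U6 in the spliceosome, had 0.203, 0.292 and 0.424 against 393.1, 464.6 and 320.0 CPM (-10.31 ± 0.27, edgeR adjusted p = 1.1e-08). U12, part of the minor spliceosome, had 0.101, 0.311 and 0.177 against 16.05, 19.12 and 18.86 CPM (-6.52 ± 0.25, edgeR adjusted p = 1.7e-07). These 3 snRNAs were lower by more than the spread between libraries.

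Small nucleolar RNAs were lower in 54 of 60 tested of 69, none was higher, and the median was -3.56. The members were spread widely. U3D, a box C/D RNA for processing the ribosomal RNA precursor, had 2.18, 2.16 and 2.28 against 728.8, 900.7 and 624.9 CPM (-8.41 ± 0.19, edgeR adjusted p = 6.2e-09). U49.1, printed above with its boxes, had 2.57, 2.41 and 2.05 against 293.9, 403.0 and 327.5 CPM (-7.18 ± 0.18, edgeR adjusted p = 8.9e-09). AT4G39363 had a smaller difference of -3.49, and AT1G74456 one of -0.86 (edgeR adjusted p = 0.0031). AT1G74453 had 3.42, 2.04 and 3.39 against 3.39, 2.49 and 2.85 CPM, and its groups overlapped (0.02 ± 0.25, edgeR adjusted p = 0.96, with a sign that turns under other settings). AT4G02970, the AT7SL-1 RNA of the signal recognition particle, which the table lists as protein-coding, had 0.068, 0.195 and 0.071 against 26.96, 82.85 and 48.03 CPM (-8.88 ± 0.58, edgeR adjusted p = 6.1e-06).

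The 2 tested of 4 nuclear ribosomal RNA loci were lower, with a median of -4.52, and the 18S locus AT2G01010 had 0, 0.039 and 0 against 1.19, 0.51 and 0.62 CPM. None of the 602 nuclear tRNA loci had enough counts to be tested. Primary transcripts of microRNAs are made by RNA polymerase II, and of 28 tested of 170 loci 3 were higher and 13 lower, with a median of -0.62. MIR156C, a precursor of a microRNA that holds plants in the juvenile phase, had 1.93, 1.93 and 2.00 against 4.45, 6.08 and 6.93 CPM (-1.57 ± 0.19, edgeR adjusted p = 2.8e-04). MIR398C, of a copper-responsive microRNA, was higher, with 21.71, 22.68 and 21.6 against 13.29, 12.45 and 10.78 CPM (0.85 ± 0.10, edgeR adjusted p = 2.2e-04). The count of lower microRNA loci fell to 6, 7 and 7 when mRNA replicates 1, 2 or 3 were left out. Of the TAS loci, which give rise to trans-acting small interfering RNAs, 5 of 6 were tested and 0 called by edgeR, with log2 fold changes from -0.27 to 0.24.

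Among loci of the class other RNA, 53 were higher and 65 lower of 285 tested of 388, with a median of 0.06 that turned to -0.19 with no TMM factor. AT5G06165 had 0.71, 0.93 and 0.69 against 457.2, 429.5 and 475.9 CPM (-9.19 ± 0.16, edgeR adjusted p = 2.4e-09). GUT15, an RNA known for its rapid decay, was higher, with 110.7, 113.1 and 104.1 against 53.17, 54.43 and 68.58 CPM (0.90 ± 0.11, edgeR adjusted p = 3.1e-04). AT1G15405 was lower, with 6.27, 5.95 and 7.85 against 1620, 7576 and 2764 CPM, and total RNA replicate 2 was the highest. For transposable element genes, 21 were higher and 100 lower of 206 tested of 3854, with a median of -0.68. A locus could pass the count filter through its total RNA counts alone, and 11 of the 206 had no count in any mRNA library. With TMM over all genes 174 loci were tested, with 22 higher, 77 lower and a median of -0.39. The counts and the median thus depend on which loci passed. SADHU1-1, a non-autonomous retroelement, was higher, with 84.23, 82.97 and 92.45 against 17.24, 36.12 and 24.94 CPM (1.73 ± 0.22, edgeR adjusted p = 3.4e-04). AT1G37340 was at 0 in all mRNA libraries and at 44.02, 47.54 and 33.71 CPM in the total RNA libraries, at least 775-fold higher there against the floor. For pseudogenes, 18 were higher and 39 lower of 145 tested of 871. AT1G05135 was the opposite extreme, with 69.42, 57.84 and 79.29 against 3.89, 4.18 and 3.69 CPM (4.13 ± 0.15, edgeR adjusted p = 1.0e-07). The count of lower pseudogenes fell to 22, 21 and 20 without mRNA replicates 1, 2 or 3.

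Nuclear protein-coding genes had 4064 higher (21.6%) and 4413 lower (23.4%) of 18831 tested, with 1140 (6.05%) and 948 (5.03%) at least 2-fold, and a median of -0.02. Among genes with at least 5 CPM in the higher group and no overlap between groups, the 10 lowest lay at -8.10 or below, with AT2G35750 outside them at -7.89. Of the 10, 3 hold or overlap a copy of a small structured RNA, and AT4G02970, described above, is itself such an RNA. HSFA9, a heat shock factor of seed development, was at 0 in all mRNA libraries and at 33.23, 67.10 and 49.80 CPM in the total RNA libraries, at least 929-fold higher there against the floor. Its model holds 151 bases that match U3D at 100% on the other strand. AT5G53740 was also at 0 in the mRNA libraries and at 2.76, 11.14 and 4.77 CPM in the others, and 141 of its bases match U3D at 97.9%. AT3G06895 overlaps U4.2 on the other strand and had 0, 0 and 0.035 against 4.77, 14.36 and 7.77 CPM (-9.17 ± 0.72, edgeR adjusted p = 2.0e-05). Because the strand setting of the counting is not given, reads of these genes and of the structured RNAs cannot be told apart.

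For the other 6 of the 10 lowest the search found no such copy. AT3G63052 had 0.101, 0.078 and 0.212 against 232.4, 333.0 and 224.8 CPM (-10.93 ± 0.31, edgeR adjusted p = 1.8e-08). AT2G31141, which overlaps AT2G31140 and AT2G31150 on the other strand, had 0.575, 0.583 and 0.619 against 663.1, 894.1 and 634.7 CPM (-10.26 ± 0.22, edgeR adjusted p = 5.3e-09). AT1G49700, of unknown function, had 2.94, 3.58 and 3.48 against 471.2, 2868 and 857.6 CPM (-8.71 ± 0.76, edgeR adjusted p = 3.8e-05), and total RNA replicate 2 was the highest. NSE4B, a subunit of the SMC5/6 DNA repair complex, had 0.186, 0.019 and 0 against 23.26, 16.85 and 21.63 CPM (-8.10 ± 0.45, edgeR adjusted p = 2.2e-06). The groups were apart for all 4. AT3G41762 (-9.91) and AT5G09700 (-9.33) complete the 10 with AT4G02970.

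A search of 26302 protein-coding models for stretches of 60 bases or more at 90% identity or more to 81 structured RNAs (snRNAs and snoRNAs of up to 400 bases and nuclear ribosomal RNAs, without 7SL RNA) found 19, of which 10 were lower and 2 higher, with a median of -0.60. The search was chosen after the lowest genes were seen, and 3 of the 10 lowest were among the 19. AT4G23420, whose stretch is printed above, matches AT1G08115 over 165 bases at 95.8% on the same strand. It had 3.08, 2.26 and 2.32 against 209.4, 286.4 and 246.0 CPM (-6.59 ± 0.19, edgeR adjusted p = 2.0e-08). AT2G35750 contains the snoRNA AT2G35747 (80 bases, 100%) and had 4.57, 4.90 and 4.19 against 990.2, 1265 and 995.5 CPM (-7.89 ± 0.18, edgeR adjusted p = 5.5e-09). Both models were lower in each mRNA library than in any total RNA library.

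By the same limits, the 10 highest genes included 3 arabinogalactan proteins, an extensin and glycine-rich proteins. AGP10, a cell wall arabinogalactan protein, had 22.57, 25.85 and 29.22 CPM in the mRNA libraries and 1.13, 1.17 and 0.308 in the total RNA libraries (4.86 ± 0.27, edgeR adjusted p = 2.2e-06). AGP7 had 45.90, 43.27 and 50.67 against 1.82, 1.91 and 2.31 CPM (4.54 ± 0.13, edgeR adjusted p = 2.0e-08). RBG8, a glycine-rich RNA-binding protein that cycles with the clock, had 358.7, 305.1 and 335.2 against 13.73, 20.07 and 11.24 CPM (4.47 ± 0.21, edgeR adjusted p = 6.2e-07). These genes did not overlap between the kits. ELF4, an evening clock component, had 9.87, 10.97 and 8.41 against 0, 0.220 and 0.385 CPM (5.67 ± 0.41, edgeR adjusted p = 1.2e-05). AT1G15830 had the largest difference of these 10, 5.94 ± 0.30, with 11.21, 11.01 and 13.15 against 0.063, 0.366 and 0.154 CPM. ATEXT4, an extensin of the wall, had 63.52, 88.70 and 76.34 against 8.84, 2.27 and 2.00 CPM (4.08 ± 0.44, edgeR adjusted p = 1.3e-04). AT4G22485 (4.77), AT3G23450 (4.57), AGP25 (4.42) and AT4G29020 (4.18) were the others.

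Families were taken by name pattern, 43 in all, and those described were chosen after their medians were seen. Arabinogalactan proteins, heavily glycosylated proteins of the cell surface, were higher in 33 and lower in 1 of 37 tested of 53, with a median of 2.21, or 1.73 with genes at 0 set at the floor. AGP9 had 252.3, 226.6 and 262.9 against 16.80, 25.86 and 26.25 CPM (3.43 ± 0.18, edgeR adjusted p = 1.3e-06). Glycine-rich proteins were higher in 35 of 40 tested of 72 and lower in 0, with a median of 1.74. GRP3, a wall protein, had 368.0, 374.9 and 373.3 against 81.83, 70.84 and 66.11 CPM (2.35 ± 0.11, edgeR adjusted p = 5.7e-07), and CSP4, a cold shock domain protein, had 29.03, 33.02 and 32.59 against 1.51, 2.56 and 1.77 CPM (4.03 ± 0.17, edgeR adjusted p = 2.7e-07). Both were apart between groups.

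Lipid transfer proteins, small secreted proteins that carry lipids to the cuticle, were higher in 36 and lower in 2 of 55 tested of 119, with a median of 1.17. LTP1 had 822.0, 790.7 and 954.3 against 277.9, 423.5 and 286.9 CPM (1.38 ± 0.18, edgeR adjusted p = 3.4e-04). Extensins and proline-rich proteins were higher in 67 and lower in 6 of 115 tested of 185, with a median of 0.79, and PRP4 and ELP were higher by 2.37 and 2.18 on the log2 scale. Nuclear genes of the photosystems, light harvesting and Rubisco's small subunit were higher in 55 and lower in 1 of 67 tested of 68, with a median of 0.82. PSAG, a subunit of photosystem I, had 3913, 3930 and 4007 against 813.1, 1285 and 1071 CPM (1.90 ± 0.18, edgeR adjusted p = 6.1e-05). These nuclear genes were higher in the mRNA libraries, while the plastid genes for the same complexes were lower. RBCS-1A, of the small subunit, had 33670, 33960 and 37980 against 11920, 18540 and 14010 CPM (1.25 ± 0.24, edgeR adjusted p = 0.0028). AT5G28450, annotated as a chlorophyll-binding family protein, was the exception, with 2.64, 2.76 and 4.37 against 31.54, 54.58 and 46.26 CPM (-3.76 ± 0.26, edgeR adjusted p = 8.4e-06). Of arabinogalactan, glycine-rich and lipid transfer genes, 89.2%, 87.5% and 65.5% were higher. In the shortest length quintile, which holds their median lengths, 36.7% of nuclear protein-coding genes were higher. Extensins and proline-rich proteins had 58.3% higher and the photosystem group 82.1%, beside 29.2% in the next length quintile, which holds theirs.

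Ribosomal proteins were higher in 103 and lower in 9 of 305 tested of 329, with a median of 0.22 that turned to -0.04 (56 higher, 39 lower) with no TMM factor. RPL10, of the ribosomal protein L10 family, had 433.8, 420.4 and 486.5 against 124.6, 171.4 and 119.7 CPM (1.69 ± 0.15, edgeR adjusted p = 4.4e-05). LOS1, a translation elongation factor that the name pattern includes, was lower (-0.79 ± 0.17, edgeR adjusted p = 0.0050). Core histones were higher in 14 and lower in 1 of 39 tested of 45, and in 22 without total RNA replicate 2. These shares, 33.8% of ribosomal protein genes and 35.9% of core histones, lie near the 36.7% higher among all nuclear protein-coding genes of the shortest length quintile, which holds the median length of both families (1009 and 842 bases). HIS4, a histone H4, had 63.07, 57.62 and 61.74 against 31.48, 24.98 and 29.32 CPM (1.09 ± 0.10, edgeR adjusted p = 6.3e-05). Replication-dependent histone messages of plants carry poly(A) tails, unlike those of animals.

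Other families were lower in the mRNA libraries. NB-LRR immune receptors, intracellular sensors of pathogens, were lower in 96 and higher in 0 of 114 tested of 147, with a median of -0.94. RPP5, which recognises downy mildew, had 186.4, 179.4 and 159.1 against 328.4, 335.9 and 387.8 CPM (-1.003 ± 0.11, edgeR adjusted p = 1.3e-04). AT2G14080 had 24.26, 25.36 and 21.14 against 77.19, 85.64 and 102.3 CPM (-1.91 ± 0.13, edgeR adjusted p = 7.2e-06). Kinesins and myosins, motors of the cytoskeleton, were lower in 39 and higher in 4 of 56 tested of 69, with a median of -0.72. POK2, a kinesin that guides the division plane, had 17.20, 17.74 and 17.71 against 64.52, 71.72 and 74.50 CPM (-2.001 ± 0.09, edgeR adjusted p = 4.7e-07), and the myosin XIK differed by -1.27. PMD1, matched as tropomyosin-related, was higher by 2.78.

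Chromatin remodelling and SET domain proteins were lower in 34 and higher in 6 of 55 tested of 66, with a median of -0.61. BRM, the ATPase of a SWI/SNF complex, had 54.26, 54.12 and 54.61 against 143.3, 150.0 and 152.5 CPM (-1.45 ± 0.08, edgeR adjusted p = 2.1e-06). Helicases were lower in 66 and higher in 7 of 98 tested of 112, with a median of -0.52. MOM1, which keeps silenced loci silent, had 18.50, 17.17 and 18.59 against 54.05, 53.62 and 55.18 CPM (-1.59 ± 0.08, edgeR adjusted p = 1.2e-06). RH11, an RNA helicase, was higher by 1.69. PPR proteins, which bind organelle RNA, were lower in 85 and higher in 19 of 239 tested of 254, with a median of -0.24, and protein kinases in 252 and 65 of 666 tested of 893, with a median of -0.29. Genes of like length were often lower too: in the longest quintile of nuclear protein-coding genes 61.6% were lower, beside 67.3% of helicases (median length 3398 bases), 61.8% of chromatin genes (3104), 69.6% of kinesins and myosins (3405) and 84.2% of NB-LRR receptors (3764). The shares of helicases, chromatin genes and kinesins and myosins lie near that background. The median length in that quintile was 3163 bases, below that of helicases, kinesins and myosins, and NB-LRR receptors. In the next quintile, which holds the median length of PPR (2238) and kinase genes (2486), 27.5% were lower, beside 35.6% and 37.8%. That quintile spans 1952 to 2540 bases with a median of 2193, so the kinase median lies near its upper end. Most of its genes are shorter than the kinase median, so 27.5% is not a length-matched share for kinases. With no TMM factor NB-LRR receptors were lower in 104, kinesins and myosins in 47 and helicases in 82.

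**Figure D3:**
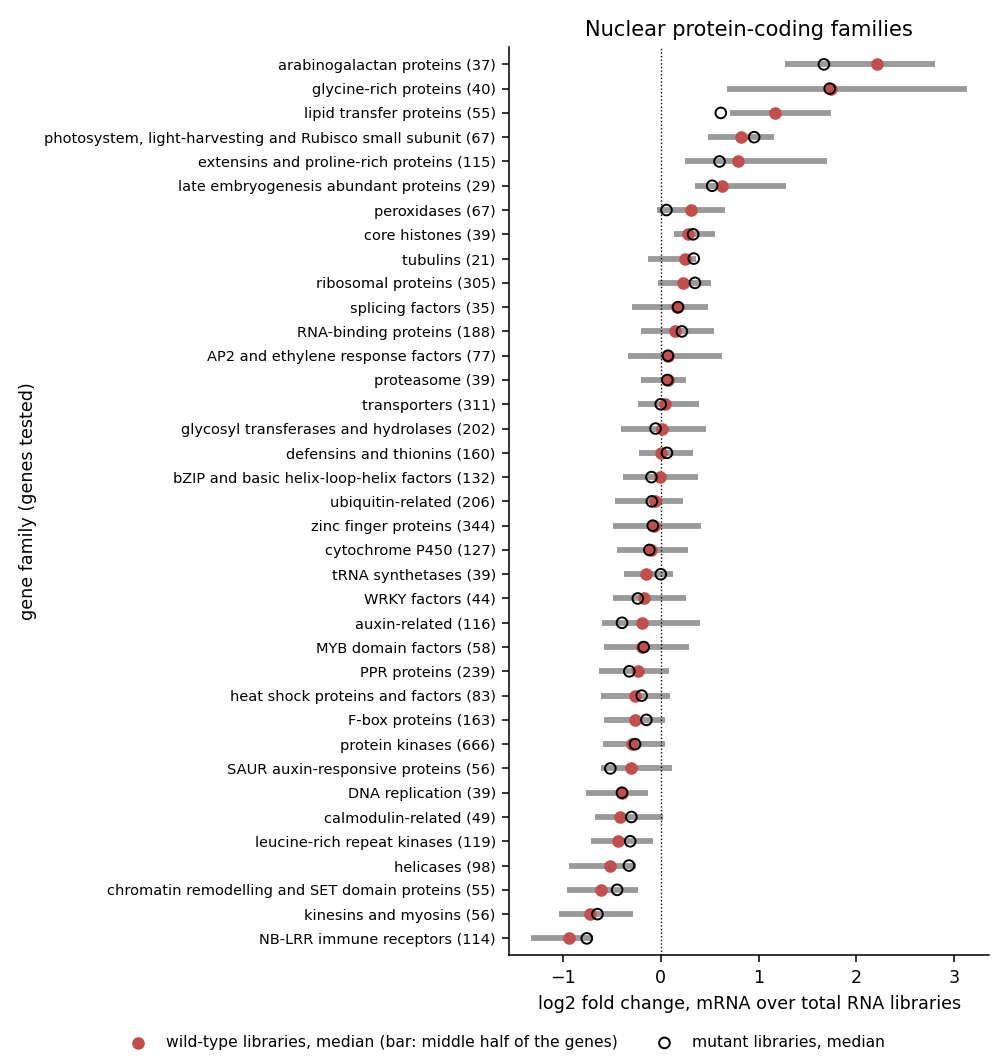
Median log2 fold change, mRNA over total RNA libraries, of name-pattern families with at least 20 genes tested; red points are the wild-type medians, grey bars span the middle of the genes and open circles are the medians in the mutant libraries. Arabinogalactan (2.21) and glycine-rich proteins (1.74) lie highest and NB-LRR immune receptors (-0.94) lowest.

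Difference and gene length went together across nuclear protein-coding genes, as a description over genes that share libraries. Reference lengths were found for 18744 of 18831 genes. Gene length, here and for the families above, is the summed length of the exons of the longest transcript, without introns. In quintiles of length, the median log2 fold change was 0.30 for genes of 93 to 1163 bases, 0.16, 0.00 and -0.14 for the next 3 quintiles, and -0.50 for those of 2541 to 16593 bases. In the shortest quintile 36.7% of genes were higher and 5.71% lower, and in the longest 5.69% were higher and 61.6% lower. By exon number, the medians were 0.13 for genes with 1 exon, 0.08 for 2 to 5, -0.05 for 6 to 10 and -0.29 for 11 or more. Single-exon genes had a median of 0.43 in the shortest length quintile and of -0.44 in the longest. Over quintiles of GC content the medians were -0.04, -0.09, -0.09, -0.06 and 0.20. Short genes in the highest GC quintile (585) had a median of 0.55 and those in the lowest (1341) one of 0.12, and the part of GC in the family differences was not tested. The mutant libraries gave 0.25 and -0.43 for the shortest and longest quintiles.

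**Figure D4:**
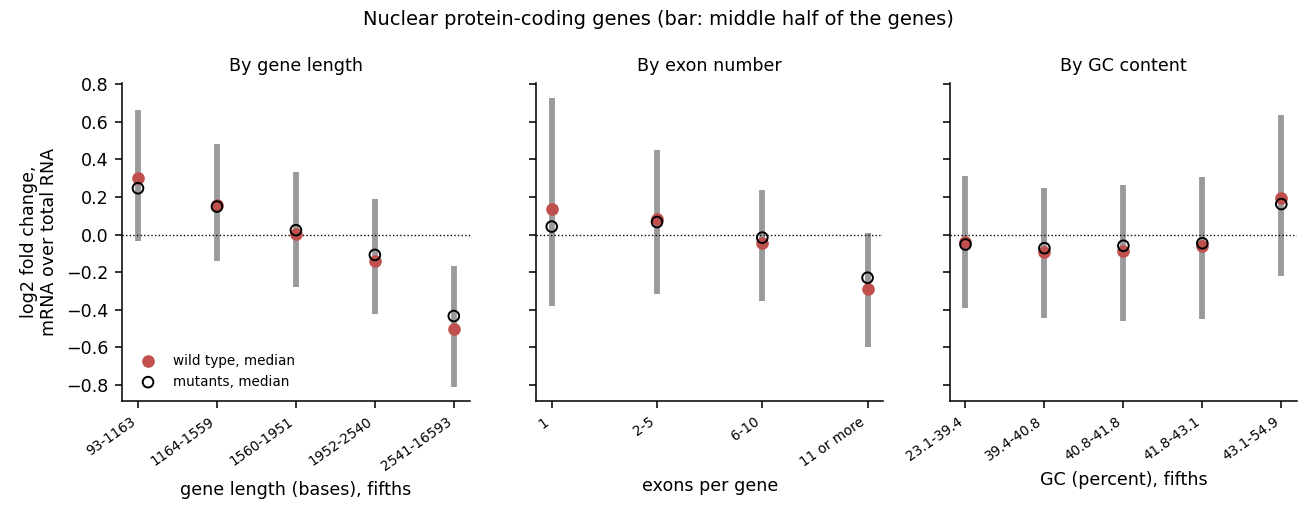
Median log2 fold change, mRNA over total RNA libraries, of nuclear protein-coding genes in bins of gene length, exon number and GC content. Length is that of the exons of the longest transcript. Red points are wild type, open circles the mutant libraries and grey bars the middle of the genes. The wild-type median goes from 0.30 in the shortest to -0.50 in the longest length bin.

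Of 10 common reference genes, 0 were higher and 1 lower by edgeR, with a median of -0.07. ACT8, an actin, had 139.1 ± 0.68 against 178.1 ± 27.2 CPM (SD, n = 3 each; -0.36 ± 0.12, edgeR adjusted p = 0.035), and the call was lost in the fit over 12 libraries (-0.33), without total RNA replicate 2 (-0.35) or 3 (-0.23) and without any 1 mRNA library (-0.36 to -0.35). ACT2 (0.09, edgeR adjusted p = 0.53, -0.17 with no TMM factor) and UBQ10 (-0.06, edgeR adjusted p = 0.75) were not called. Genes of the morning clock were lower in 4 of 6 and higher in 0, with a median of -1.07. LHY, a MYB factor that peaks at dawn, had 2.42, 2.24 and 3.13 against 10.97, 8.06 and 9.39 CPM (-1.87 ± 0.18, edgeR adjusted p = 6.8e-05). CCA1, its close relative, had 12.56, 10.23 and 12.99 against 25.52, 21.39 and 22.24 CPM (-0.95 ± 0.12, edgeR adjusted p = 3.3e-04). RVE1 (-1.62) and APRR9 (-1.19) were lower too, while RVE8 (-0.44, edgeR adjusted p = 0.21) and APRR7 (-0.03, edgeR adjusted p = 0.89) were not called. RVE8 was called without total RNA replicate 3 (-0.67).

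Of 8 evening clock genes, 3 were higher and 1 lower. APRR3 had 16.25, 17.06 and 13.61 against 9.34, 9.01 and 11.31 CPM (0.66 ± 0.13, edgeR adjusted p = 0.0033), and ELF4 is described above. LUX (0.55, edgeR adjusted p = 0.025) and GI (-0.45, edgeR adjusted p = 0.020), both needed for a normal clock, lost their call without any 1 mRNA library or total RNA replicate 2, with LUX then at 0.49 to 0.58 and GI at -0.45 to -0.40. LUX lost it also with no TMM factor (0.30). ADO3, APRR5, ELF3 and APRR1 had 0.29, 0.28, -0.08 and -0.10 and were not called. APRR5 ranged from 38.62 to 106.8 CPM over the total RNA libraries, against 82.11 to 97.61 over the mRNA libraries, so these overlapped. The time of harvest is not given, and the part of it in the clock genes was not tested. Of 15 genes that respond rapidly to handling, 1 was higher and 3 lower. CZF1 (-0.54, edgeR adjusted p = 0.0032) and SZF1 (-0.52, edgeR adjusted p = 0.0078), zinc finger genes of salt stress, were lower. WRKY40 (-1.28, edgeR adjusted p = 0.033) lost its call without any 1 total RNA library (-1.32 to -1.22), and SIB1 (1.47, edgeR adjusted p = 0.020) without total RNA replicate 1 (1.33) or 3 (1.48).

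Genes from AT4G12640 to AT4G15550 on chromosome 4 were kept apart from the scaling and the protein-coding class. Of 263 tested of 403, 193 were higher and 11 lower, with a median of 0.95. They took 2.549% ± 0.00363 of counts in the mRNA libraries and 0.4285% ± 0.0387 in the total RNA libraries. Set against nuclear protein-coding counts, which leaves out the plastid counts, the segment had 2.62% ± 0.00396 and 1.15% ± 0.0159 (n = 3 each). LRX3, a leucine-rich repeat extensin of the wall, had 317.2, 400.9 and 406.0 against 43.33, 38.31 and 32.17 CPM (3.30 ± 0.15, edgeR adjusted p = 6.2e-07). FdC2, a ferredoxin-like protein, had 274.0, 275.8 and 287.6 against 38.00, 40.36 and 29.79 CPM (2.95 ± 0.13, edgeR adjusted p = 3.7e-07). Both were higher in every mRNA library. RBG2 (3.65) and NFYB3 (3.04) had the same direction.

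The same pair of kits was also used on the mutants. RAP74 had 21.03 to 24.43 CPM in the wild-type mRNA libraries and 15.86 to 18.07 in tfIIfα1, and 18.90 to 20.17 in the wild-type total RNA libraries and 11.45 to 14.32 in tfIIfα2. TMM factors were computed separately for the wild-type and the mutant libraries, so these CPM are not on a shared scale. RAP74 (AT4G12610) also lies close to the chromosome 4 segment that starts at AT4G12640. The tfIIfα1 group includes a pair of columns whose headers name the other allele. They were placed by the prefix 1171 that the titles of mRNA libraries have. Their counts were even in 72.2% and 69.6%. Of 20252 genes tested in these 6 libraries, 41.7% were called, 3969 higher (19.6%) and 4486 lower (22.2%). Over 18561 nuclear protein-coding genes tested in both sets the log2 fold changes correlated at 0.881, a description over genes that share libraries within each set. Of 8412 called in wild type, 97.4% had the same sign and 71.4% were also called, which is 79.1% of the mutants' calls. Plastid protein-coding genes had a median of -12.45 there, small nuclear RNAs -7.07 and NB-LRR receptors -0.75. Arabinogalactan proteins had a median of 1.67 in the mutants against 2.21 in wild type. Lipid transfer proteins had 0.61 against 1.17. Transposable element genes had -0.38 over 179 loci against -0.68 over 206. Ribosomal proteins were higher in 161 in the mutants against 103 in wild type.

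A test of the difference, the interaction in 1 edgeR fit over 12 libraries, called 157 of 20933 genes (0.75%), of which 122 lay in the segment of chromosome 4. The segment had a median of 0.95 in wild type and -0.08 in the mutants. It took 1.261% to 1.285% of all counts in the tfIIfα1 mRNA libraries and 2.545% to 2.551% in the wild-type mRNA libraries. In the total RNA libraries it took 0.4006% to 0.4357% in tfIIfα2 and 0.3838% to 0.4529% in wild type. The cause of these differences was not tested. Outside the segment, 35 genes were called. Among them, DXS (AT4G15560) and AT4G15610 lie just past the end of the segment by locus number. DXS had an interaction of 0.82 (edgeR adjusted p = 0.017), with 1121, 1099 and 1077 against 641.9, 786.9 and 705.7 CPM in wild type. AT4G15610 had one of -2.65 (edgeR adjusted p = 0.018). LTP2 was higher in wild type, with 48.15, 45.78 and 45.12 against 9.72, 15.68 and 9.39 CPM (2.00 ± 0.18), and lower in the mutants (-0.73), an interaction of 2.75 (edgeR adjusted p = 0.0017). Genotype moves with kit in the mutants, and the wild-type lines differ between kits, so kit, line, run and allele cannot be told apart in this comparison.

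**Figure D5:**
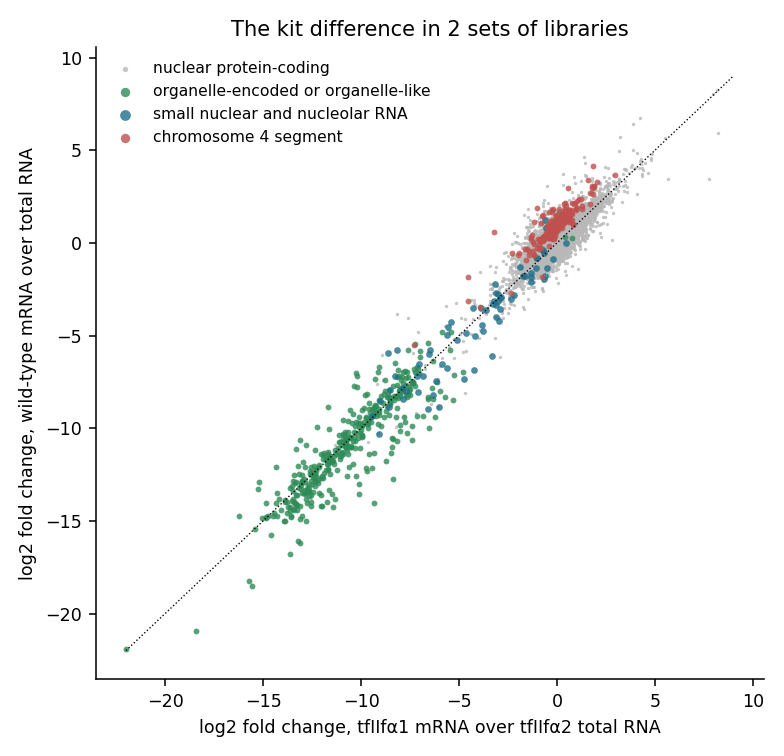
Log2 fold change of each gene in the mutant libraries (tfIIfα1 mRNA over tfIIfα2 total RNA, horizontal) and in the wild-type libraries (vertical), with the dotted line marking equal values. Nuclear protein-coding genes (grey, r = 0.881) lie along the line, organelle-encoded and organelle-like genes (green) and small RNAs (blue) lie at the lower left, and segment genes (red) lie above it in part.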

How the data were processed

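The authors deposited raw counts for 33602 loci, together with biotypes, symbols and descriptions. Per the submitters' processing notes the tools included Bowtie2 2.2.9, FastQC 0.11.5 and edgeR 3.20.1, and the build was TAIR10. The counting tool, its strand setting and its treatment of shared reads are not given in the sources used here. Groups came from the titles. A further 24 columns of values per library (6 of counts, 18 normalized) were not used.

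Counts of the 6 wild-type libraries were filtered with filterByExpr and tested in edgeR 4.0.16 (R 4.3.3) with the quasi-likelihood test. Library sizes and TMM factors came from nuclear protein-coding genes outside AT4G12640 to AT4G15550, organelle-like loci among them. Each standard error is the size of the log2 fold change divided by the root of the F statistic. The biological coefficient of variation was 0.134. Replicates differed beyond sampling noise, with a chi-square of 9.8 to 40.0 per degree of freedom. The floor for genes at 0 is 3 counts per library of mean size, which covers counting error only.

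Named genes were the 10 largest differences in each direction with no overlap between groups and at least 5 CPM, up to 6 per class, family or list by smallest p, the 3 highest in each group (6 for the organelle genomes), list members, and up to 4 of the segment; RAP74 was added as a check of the labels. Members and lists were chosen with earlier results of these data known. The organelle-like class, the structured RNA search (blastn 2.17.0), the families described and the printed sequences were chosen after values were seen. TAIR10.1 gave lengths, exons and sequences for 32835 matched loci. No coordinates are printed, because the authors' build differs.

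The fit was tested on simulated data with 20154 genes, where it recovered 41.1%, 80.8% and 97.2% of genes changed 1.5-, 2- and 4-fold. Only 56, 73 and 71 genes were changed by these folds, and all genes had the same coefficient of variation. Far more genes were called in the real libraries, so these rates do not carry over to this comparison. Alternatives were other scalings and filters, DESeq2 1.42.0, limma-voom (limma 3.58.1), a replicate block, a fit over 12 libraries, stricter thresholds and leaving out each library.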

Additional observations from a re-analysis of the deposited data

Results flagged for a closer look

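The difference between kits was not the same in wild type and mutants for 157 genes by the interaction test of edgeR, and 122 of these lie in the segment of chromosome 4 from AT4G12640 to AT4G15550. In the segment, LRX3 had an interaction of 1.31 (3.30 in wild type, 2.02 in the mutants), NFYB3 one of 1.17 (3.04 and 1.89) and FdC2 one of 1.21 (2.95 and 1.76), all larger in wild type. LTP2 had an interaction of 2.75 and opposite directions, with 28.15 to 36.21 CPM in tfIIfα1 and 35.01 to 75.56 in tfIIfα2 libraries. The snoRNA AT2G05765 had one of -1.22 (-4.21 and -2.97, edgeR adjusted p = 0.045), with 2.12 to 2.53 CPM in the wild-type mRNA libraries and 37.48 to 52.29 in the total RNA libraries. AT2G07715, an organelle-like locus of chromosome 2, had one of 0.86 (-6.16 and -7.00, edgeR adjusted p = 0.019). Kit, allele, wild-type line and run cannot be told apart in these differences.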

How the results depend on the processing

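Over 130 genes picked by the naming rule, 2141 results under the alternatives kept direction and side of the threshold, 31 lost the call, 7 gained it and 17 turned sign, in 18 genes; the other 112 genes kept both under every alternative run. The 9447 calls were 9620 with DESeq2 and 9325 with limma-voom, and 7223 to 9869 when 1 library was left out. Replicate numbers did not pair the samples (correlations of -0.07, 0.06 and -0.17), and the replicate block gave 3850 higher and 4432 lower, without calls for JGL (1.59) and ACT8 (-0.35). With no TMM factor, 2437 genes were higher and 7965 lower, ribosomal proteins higher in 56, core histones in 8, other RNA higher in 33, and the shortest and longest quintile medians were 0.0404 and -0.76. With TMM over all genes these medians were 0.33 and -0.47, and 25 pseudogenes were lower, and over 12 libraries the longest quintile was at -0.48. At an adjusted p of 0.01, 2880 genes were higher, 64 ribosomal proteins higher, 156 kinases lower, 24 pseudogenes lower, and 35 other RNA loci higher and 41 lower, and the interaction called 98, a threshold chosen after seeing the data, as was leaving organelle-like genes out of the scaling (9464 calls). Without the count filter, 21 microRNA and 153 transposable element loci were lower, and with at least 1 CPM in 3 libraries 4, 63 and, for pseudogenes, 23. Without the 10 highest genes, the share differences (mRNA minus total) were -21.2 for plastid, -2.41 for mitochondrial, 25.7 for nuclear protein-coding, -0.192 for snRNA, -0.170 for snoRNA and -2.49 for organelle-like counts. Leaving out 1 library gave 6 to 15 lower microRNA loci, 20 to 37 lower pseudogenes and 12 to 22 higher histones. Signs turned for AT1G74453 (-0.25 with no TMM factor, -0.016 with limma-voom, -0.000336 with the block), MIR167D (-0.17 with no TMM factor), ACT2 (-0.17 with no TMM factor) and APRR7 (0.0003022 with TMM over all genes). With 1 library left out, AT1G74453 went from -0.099 to 0.22, MIR167D from -0.089 to 0.24, APRR7 from -0.18 to 0.16, ADO3 from -0.095 to 0.72, APRR5 from -0.032 to 0.65, ELF3 from -0.13 to 0.044, APRR1 from -0.33 to 0.25 and UBQ10 from -0.14 to 0.074. Total RNA libraries hold 11631298 to 14026531 nuclear protein-coding counts, which limits low genes there.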
